A study of Mus musculus with 6 samples.

Results

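Carriers of sugars, amino acids and related small molecules were examined in sorted dendritic cells of mouse bone marrow. The members are the genes of the solute carrier families Slc1, Slc2, Slc3, Slc5, Slc6, Slc7, Slc16, Slc36, Slc38 and Slc43, taken by symbol from the deposited table. Of 104 such rows, 73 had a read in at least 1 library and 31 had none, among 16753 genes with a read in all. Of the 73, 70 carry a transporter symbol. The other 3 are not carriers: Slc7a6os and Slc36a1os are opposite-strand genes, and Slc2a4rg-ps is a pseudogene.

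The study set 3 WT samples against 3 TCL samples, all of strain C57BL/6. TCL mice belong to an adoptive transfer model of chronic lymphocytic leukaemia, in which leukaemic B cells are given to a recipient. Both groups are marrow cells sorted by flow cytometry on dendritic cell markers, and RNA was sequenced after poly(A) selection. The sources used here do not give the sort markers, the age or sex of the mice, the donor line of the leukaemic cells or the number of mice per sample. The p-values therefore reflect sample-to-sample spread, part of which may be technical. Libraries are named by the numbers in the table's columns, WT libraries 3, 7 and 9 and TCL libraries 4, 8 and 10.

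Solute carriers move nutrients that cannot cross a membrane alone. Slc2 proteins (GLUT) let sugars pass down their gradient, and Slc16 proteins (monocarboxylate transporters) carry lactate, pyruvate or aromatic amino acids. Amino acids enter by sodium-coupled carriers of the Slc1, Slc6 and Slc38 families and by exchangers that pair a heavy chain of the Slc3 family with a light chain of the Slc7 family. Dendritic cells raise glucose uptake when they are activated, and the supply of arginine, leucine, cystine and glutamine around them is shared with neighbouring lymphocytes.

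Libraries held 17158819 to 25674314 reads. Levels are CPM, read counts divided by the TMM effective library size and scaled as is usual for that unit. The dendritic cell marker Itgax (CD11c) was at 474.5 ± 79.7 CPM in WT and 515 ± 140 CPM in TCL (SD, n = 3 each, as for every such value). Markers of other cells were present as well. The 11 neutrophil markers with a row summed to 27453 to 57332 CPM in WT and 13941 to 30883 CPM in TCL, against 58957 to 77235 and 19428 to 44463 CPM for 18 dendritic cell markers. The dendritic cell list had 0 genes called higher and 7 called lower. In such sorted bulk samples, fewer cells of a type and less RNA per cell cannot be told apart.

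In TCL, 5 transporter genes rose and 2 fell. The glucose carrier gene Slc2a1 (GLUT1) and its relative Slc2a6 (GLUT6), the glycine carrier gene Slc6a9 (GLYT1), the iodide carrier gene Slc5a5 and the aromatic amino acid carrier gene Slc16a10 (TAT1) were higher. The cationic amino acid carrier gene Slc7a2 (CAT2) and the carnitine carrier gene Slc16a9 were lower. Of the 73 members 52 passed the filter on low counts and 45 of these were not called. The test was edgeR's quasi-likelihood test over 13010 genes with Benjamini-Hochberg adjustment and a threshold of 0.05. It called 2.03% of all tested genes higher and 2.61% lower, where the members' shares were 9.62% and 3.85%. With scaling to library size only the members' counts were 6 higher and 1 lower, Slc16a3 being added and Slc16a9 lost, and with the deposited size factors 5 and 1, Slc16a9 being lost.

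Slc6a9 was the only one of the 7 that stayed called whichever single library was left out. Leaving out WT library 3 or TCL library 4 gave 1 member called, leaving out WT library 7 or 9 or TCL library 10 gave 3, and leaving out TCL library 8 gave 9. The members called without TCL library 8 were Slc2a1, Slc2a6, Slc5a5, Slc6a9, Slc7a2, Slc16a9, Slc16a3, Slc38a2 and Slc6a20a. Slc5a5 and Slc7a2 reached the filter of 10 reads at the median depth, or 0.437 CPM, in libraries of 1 group only, so a difference was built into their being tested.

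**Figure D1:**
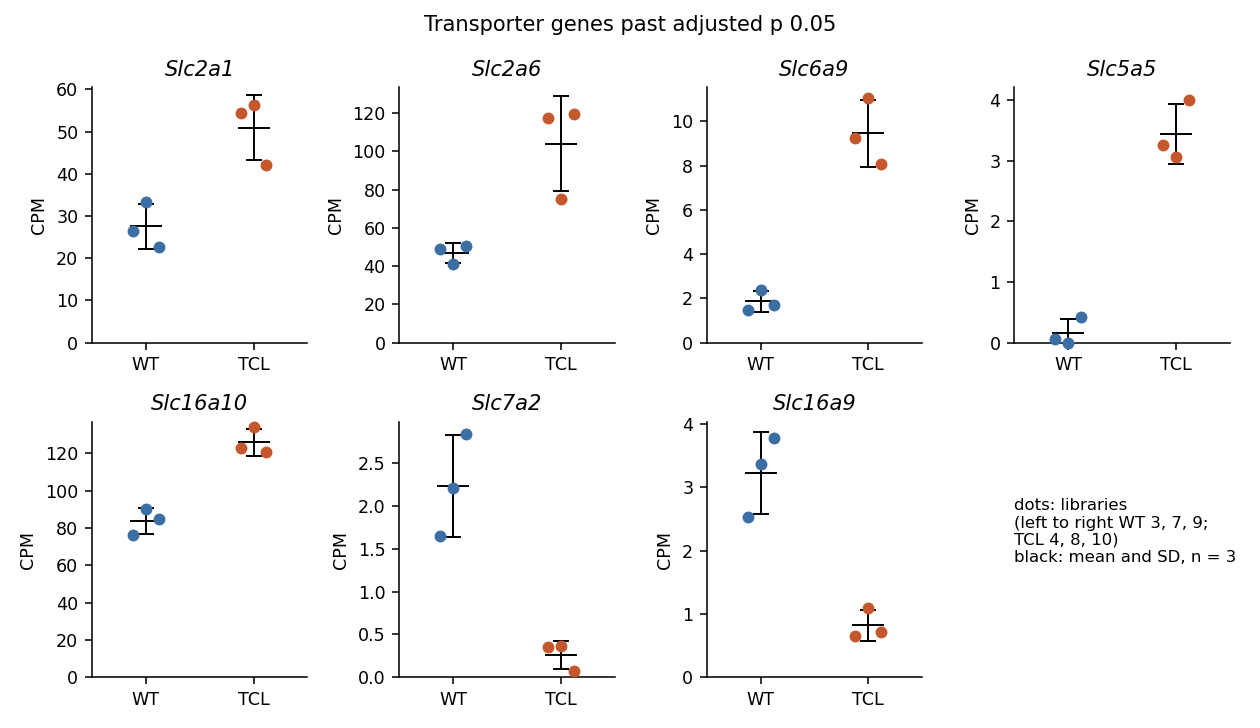
CPM of the 7 transporter genes past an adjusted p of 0.05 in each of 3 WT and 3 TCL libraries, with the mean and SD in black. Every TCL library lies above every WT library for Slc2a1, Slc2a6, Slc6a9, Slc5a5 and Slc16a10 and below for Slc7a2 and Slc16a9.

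Slc2a1 encodes the glucose carrier that supplies most dividing or activated blood cells. It was at 26.5, 33.3 and 22.7 CPM in WT libraries 3, 7 and 9 and at 54.3, 56.4 and 42.1 CPM in TCL libraries 4, 8 and 10. The groups did not overlap, TCL library 10 being the lowest of its group. On the log2 scale Slc2a1 rose by 0.89 (SE 0.19, edgeR adjusted p 0.0353), and the call was lost on leaving out WT library 3 or 9 or TCL library 4 (adjusted p up to 0.121). The gene lies at chr4:119108711-119137983 on the plus strand (GRCm38).

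Slc2a6, a GLUT of myeloid cells that lies mainly on membranes inside the cell, was at 49.1, 41.0 and 50.7 CPM in the WT libraries and at 117, 75.3 and 119.7 CPM in the TCL libraries. TCL library 8 was the lowest of its group but still above all WT libraries. The mean rose from 47.0 ± 5.21 to 104.1 ± 25 CPM, a log2 fold change of 1.15 (SE 0.20, edgeR adjusted p 0.0140). The call was lost on leaving out WT library 3 or 7 or TCL library 4 (adjusted p up to 0.0611). Its locus is chr2:27021363-27027998 on the minus strand.

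The other sugar carriers did not pass. Slc2a3 (GLUT3), another glucose carrier of leukocytes, was at 88.7 ± 5.28 CPM in WT and 80.4 ± 12.4 CPM in TCL (log2 fold change -0.14, SE 0.16). Slc2a9, which carries urate, was at 6.20, 4.78 and 5.21 CPM in WT and 10.8, 7.18 and 10.97 CPM in TCL, with groups that did not overlap (log2 fold change 0.84, SE 0.28, edgeR adjusted p 0.121). Slc2a8, an intracellular hexose carrier, was at 13.7 ± 1.20 and 13.0 ± 0.721 CPM. The insulin-dependent carrier gene Slc2a4 was low, at 0.614 ± 0.172 and 1.02 ± 0.303 CPM, and the fructose carrier gene Slc2a5, with 2 WT and 14 TCL reads, was not tested. Slc2a10 had 1 read, in TCL, and Slc2a12 had 6, all in WT library 3. The pseudogene Slc2a4rg-ps was at 14.3 ± 2.81 CPM in WT and 11.2 ± 2.54 CPM in TCL.

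Summed over the 9 Slc2 carriers, the level was 187, 185 and 177 CPM in the WT libraries and 272, 248 and 258 CPM in the TCL libraries. WT and TCL libraries did not overlap in this sum. Levels per kilobase divide by all bases in any annotated exon of a gene, 3211 for Slc2a6 and 7245 for Slc2a3. Transcripts that lack some of these exons can make such comparisons between genes approximate. On this scale the level of Slc2a6 was 14.6 ± 1.62 CPM per kb in WT and 32.4 ± 7.79 CPM per kb in TCL. That of Slc2a3 was 12.25 ± 0.728 and 11.1 ± 1.71 CPM per kb. On this scale Slc2a6 had the higher mean of the pair in both groups. Before division by length Slc2a3 had the higher mean in WT, 88.75 against 46.96 CPM.

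Windows upstream of the start sites of called genes are shown because Slc2a1 is a known target of the hypoxia factor HIF-1, whose subunit gene Hif1a rose as well. Hif1a was at 61, 47.1 and 64.3 CPM in WT and 136, 80.9 and 159 CPM in TCL (log2 fold change 1.125, SE 0.24, edgeR adjusted p 0.0347). Whether the factor acts on these genes was not tested. Of the 7 genes called 6 were matched by symbol in RefSeq (GRCm38.p6), with 8 windows, and Slc7a2 was not. Each window runs from 250 bases before to 50 after the start, and the 250 bases before it are printed for 4 of the genes that rose. Both strands were searched for ACGTG and GCGTG, the core of the hypoxia response element, for CACGTG (E-box, which holds ACGTG), for TGATGNAA (part of the site bound by ATF4) and for TTCNNNGAA (the STAT site GAS). Capitals mark the matches.

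Slc2a1 (chr4:119108495-119108744, plus strand) has a CACGC, which is GCGTG on the other strand, and an ACGTG that begins 36 bases before the start. Slc2a6 (chr2:27027999-27028248, minus strand) has 4 matches to GCGTG, and Slc16a10 (chr10:40142255-40142504, minus strand) has 2. Slc5a5 (chr8:70892758-70893007, minus strand) has no match to any of the 5 motifs.
Slc2a1: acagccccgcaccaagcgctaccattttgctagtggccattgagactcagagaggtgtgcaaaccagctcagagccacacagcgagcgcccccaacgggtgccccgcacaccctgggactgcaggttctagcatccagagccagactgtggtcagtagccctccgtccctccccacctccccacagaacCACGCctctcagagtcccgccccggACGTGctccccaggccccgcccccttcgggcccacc
Slc2a6: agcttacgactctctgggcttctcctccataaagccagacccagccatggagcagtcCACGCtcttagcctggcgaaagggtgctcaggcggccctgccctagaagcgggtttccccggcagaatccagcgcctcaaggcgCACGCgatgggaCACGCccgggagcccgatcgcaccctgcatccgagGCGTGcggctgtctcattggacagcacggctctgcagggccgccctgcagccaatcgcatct
Slc16a10: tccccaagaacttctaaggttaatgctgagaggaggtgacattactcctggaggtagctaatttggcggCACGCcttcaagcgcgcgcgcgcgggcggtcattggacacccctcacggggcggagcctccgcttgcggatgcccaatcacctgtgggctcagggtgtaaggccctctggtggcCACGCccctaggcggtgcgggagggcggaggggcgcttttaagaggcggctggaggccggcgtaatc
Slc5a5: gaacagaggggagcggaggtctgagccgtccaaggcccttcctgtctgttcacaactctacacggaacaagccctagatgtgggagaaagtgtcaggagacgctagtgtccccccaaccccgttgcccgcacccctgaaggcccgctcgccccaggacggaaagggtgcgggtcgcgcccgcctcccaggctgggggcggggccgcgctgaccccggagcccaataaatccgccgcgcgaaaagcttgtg

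GCGTG also lies in all 3 windows of Slc6a9 and in that of Slc16a9, which fell. The motif is common. It was found in 32.4% of the 32851 windows of the same length in the table and in 41.5% of the 53 windows of tested members, and ACGTG in 19.6% and 28.3%. TGATGNAA, TTCNNNGAA and CACGTG were in none of the 8 windows of called genes, and in 3.97%, 8.30% and 7.15% of all windows.

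Slc6a9 had the smallest adjusted p of the members. The gene encodes GLYT1, a sodium- and chloride-coupled carrier that takes up glycine, which red cell precursors need for haem. Its level was 1.48, 2.39 and 1.72 CPM in WT libraries 3, 7 and 9 and 9.23, 11.1 and 8.09 CPM in TCL libraries 4, 8 and 10. All TCL libraries lay above all WT libraries, the mean being 5.07-fold higher. The gene lies at chr4:117834506-117875198 on the plus strand. Its log2 fold change was 2.34 (SE 0.32, edgeR adjusted p 0.00519), and it was called under all 15 other settings. Its exons share 27.8% of their bases with those of Ccdc24 on the opposite strand, a gene with 5 WT reads and 0 TCL reads.

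Erythroid markers moved with Slc6a9. The 11 markers with a row summed to 138 to 210 CPM in WT and 290 to 775 CPM in TCL, with TCL library 8 the highest, as it was for Slc6a9. Of 8 tested, 2 rose (Slc4a1, the anion exchanger of red cells, and Ermap) and 0 fell. Over all tested genes 2.03% rose and 2.61% fell. Slc4a1 went from 19.1 ± 1.60 to 122 ± 51.3 CPM. The globin genes Hba-a1 and Hbb-bt had 0 reads in every library, and Epb42 has no row. Among T and NK cell markers 2 of 12 tested also rose, Gzmb and Cd8a, and 0 fell. Their sums were 274 to 360.5 CPM in WT and 275 to 413 CPM in TCL. Without TCL library 8 Slc6a9 was still called. The erythroid sums of TCL libraries 4 and 10, at 324.5 and 290.4 CPM, also lay above those of all WT libraries. The part of erythroid, T or NK cells in the rise of Slc6a9 was not tested.

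Slc43a1, Slc38a5 and Slc7a5 were also highest in TCL library 8 and did not pass, as were Slc2a1 and Slc16a10, which did. Slc43a1 (LAT3), which carries large neutral amino acids, was at 7.14, 11.9 and 6.20 CPM in WT and 14.9, 25.8 and 13.2 CPM in TCL, with no overlap (log2 fold change 1.10, SE 0.34, edgeR adjusted p 0.0973). Slc38a5, a glutamine and glycine carrier gene, was at 4.94, 12.6 and 6.33 CPM in WT and 10.97, 18.7 and 7.08 CPM in TCL, with overlap. Slc7a5, the leucine carrier LAT1, was at 73.1 CPM in TCL library 8, while the other 5 libraries lay between 36.7 and 39.05 CPM. Slc43a1, Slc38a5 and Slc7a5 were picked for this comparison after their values were seen. Other members highest in TCL library 8 included Slc2a3, Slc16a1, Slc16a6 and Slc43a3, whose groups overlapped.

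**Figure D2:**
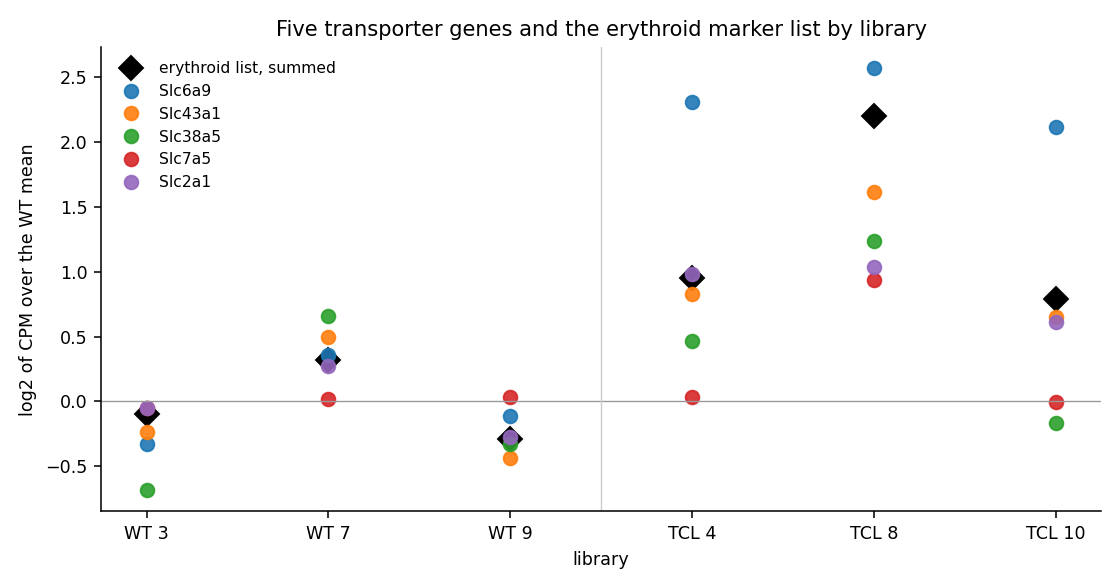
Log2 of CPM over the WT mean, by library, for the summed erythroid marker list (diamonds) and for Slc6a9, Slc43a1, Slc38a5, Slc7a5 and Slc2a1 (dots). In TCL library 8, where the erythroid list sums to 775 CPM, all 5 genes have their highest value, and Slc7a5 stands above its WT mean by more than 0.1 in that library alone. Slc43a1, Slc38a5 and Slc7a5 were picked after their values were seen.

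Slc5a5 encodes the sodium iodide symporter, best known from the thyroid. It had 11 reads over the WT libraries, at 0.0549, 0 and 0.431 CPM, and 257 reads over the TCL libraries, at 3.27, 3.06 and 4.01 CPM. The 3 TCL libraries were close to each other and far above every WT library, although the level stayed low. The fitted log2 fold change was 4.24 (SE 0.86, edgeR adjusted p 0.0270), and it ranged from 2.70 to 6.65 over the other settings. The call was lost on leaving out WT library 3 or TCL library 4 or 10 (adjusted p up to 0.0946). The gene lies at chr8:70882889-70892757 on the minus strand.

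Among the other Slc5 genes none was called. The multivitamin carrier gene Slc5a6 was at 4.68 ± 1.12 CPM in WT and 4.36 ± 0.733 CPM in TCL. For the inositol carrier genes the log2 fold change was -0.76 (SE 0.50) in Slc5a3 and 0.17 (SE 0.36) in Slc5a11. The kidney glucose carrier gene Slc5a2 had 0 WT reads and 6 TCL reads, 2 in each TCL library, and was not tested.

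Slc16a10 (TAT1) carries tryptophan, tyrosine and phenylalanine down their gradient. It was at 76.3, 90.2 and 84.6 CPM in WT and at 122.7, 133.9 and 120.6 CPM in TCL. The groups did not overlap, with means of 83.7 ± 7.002 and 125.7 ± 7.14 CPM. Its locus is chr10:40033532-40142258 on the minus strand. The log2 fold change was 0.59 (SE 0.14, edgeR adjusted p 0.0462), the smallest change among the 7 genes called. The call was lost in each of the 6 fits that left out a library (adjusted p up to 0.159) and with the filter of 5 CPM in 3 libraries.

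Slc16a3 (MCT4), the lactate exporter of glycolytic cells, lay just outside the threshold. It was at 112, 121.5 and 99.2 CPM in WT and at 216.5, 147.8 and 167.8 CPM in TCL, again without overlap, and its log2 fold change of 0.68 (SE 0.18) was larger than that of Slc16a10. The edgeR adjusted p was 0.0615. It was called with library size scaling, with no filter, by DESeq2 and without TCL library 8. Slc16a1 (MCT1), the lactate carrier of most tissues, overlapped between groups at 26.4 ± 3.85 and 27.9 ± 11.1 CPM. Bsg (basigin), the chaperone that brings both to the cell surface, was at 271 ± 34.7 and 228 ± 43.5 CPM and was not called.

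Slc16a9, at a low level, went the other way. It was at 2.53, 3.37 and 3.79 CPM in WT and 0.653, 1.10 and 0.711 CPM in TCL. It fell by 1.97 on the log2 scale (SE 0.48) with an edgeR adjusted p of 0.0499, at the edge of the threshold. It was also called by DESeq2, by limma-trend, with no filter and without TCL library 8, and not with either other scaling, by limma-voom or in the other leave-outs (adjusted p up to 0.150). The gene lies at chr10:70245100-70285968 on the plus strand, and its exons share bases with Gm7097 and Gm9877. In the same family Slc16a6, Slc16a7 and Slc16a13 had overlapping groups and log2 fold changes from -0.31 to 0.12. Slc16a11 was tested on 27 and 45 reads. Slc16a4 (3 WT and 22 TCL reads), Slc16a5 (9 and 5), Slc16a12 (3 and 1) and Slc16a14 (7 and 5) were not tested.

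Slc7a2 (CAT2), which brings arginine into macrophages for nitric oxide or arginase, was at 1.65, 2.21 and 2.84 CPM in WT and at 0.348, 0.367 and 0.0749 CPM in TCL. It had 132 WT and 19 TCL reads, and the groups lay apart. The gene lies at chr8:40862396-40922308 on the plus strand, and its exons share bases with Gm26584. The fall was 3.07 on the log2 scale (SE 0.71, edgeR adjusted p 0.0425). The call was lost with limma-voom and in each leave-out other than that of TCL library 8 (adjusted p up to 0.120).

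Most macrophage markers lay lower in TCL, as Slc7a2 and Slc16a9 did. Of 16 tested, 7 fell and 1 rose (Spic), beside 2.61% lower and 2.03% higher over all tested genes. The 16 summed to 14645 to 16648 CPM in WT and 7867 to 8758 CPM in TCL. Mrc1, the mannose receptor gene, went from 210.9 ± 23.5 to 26.04 ± 7.26 CPM, and Cd163, a haemoglobin scavenger receptor gene, from 20.2 ± 3.50 to 2.49 ± 0.691 CPM. Apoe went from 5829 ± 460 to 1932 ± 680 CPM, a large part of the fall in the sum. Of the 16, 4 had a log2 fold change above 0. Csf1r was at 1269 ± 122 CPM in WT and 1942 ± 668 CPM in TCL, and Cd68 at 582 ± 142 and 532 ± 65 CPM, neither called. Basophil and mast cell markers summed to 346 to 855 CPM in WT and 224 to 300 CPM in TCL, with 5 of 8 lower, and B cell markers to 320 to 764 and 207 to 290 CPM, with 6 of 12 lower. Stromal and endothelial markers summed to 218 to 499 CPM in WT and 184 to 288 CPM in TCL, with 8 of 11 lower, 1 higher and a median log2 fold change of -4.84. Of 7 plasma cell markers 1 was lower (Jchain), with sums of 1137 to 1994 and 339 to 526 CPM, and of 7 megakaryocyte markers 1 (Pf4), with sums of 58.9 to 106 and 23.8 to 27.1 CPM. No marker of these 6 lists was at 0 in every library. Dendritic cell markers fell too, with 7 of 18 lower and 0 higher. Their median log2 fold change was -1.08, beside -1.02 for the macrophage markers. The part of any of these cells in the fall of Slc7a2 and Slc16a9 was not tested.

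Slc7a1 (CAT1), the general arginine and lysine carrier, lay opposite to its relative. Slc7a1 was at 18.9, 28.7 and 30.4 CPM in WT and at 38.3, 44.2 and 49.4 CPM in TCL. The groups did not overlap, but the log2 fold change of 0.76 (SE 0.21) had an edgeR adjusted p of 0.0740, and only DESeq2 and the fit with no filter called it. Enzymes that use arginine were not called. Of 12 tested genes of arginine and polyamine use 0 passed (edgeR). Arg1 was at 1.515 ± 0.518 and 0.748 ± 0.4135 CPM, Arg2 at 5.61 ± 1.56 and 7.20 ± 2.35 CPM, and Nos2 had 11 and 25 reads.

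Heteromeric carriers showed no called change. Their common heavy chain Slc3a2 (CD98) was at 188, 233 and 174 CPM in WT and 139.5, 181 and 125 CPM in TCL. TCL library 8 lay within the WT range, and the log2 fold change was -0.42 (SE 0.19, edgeR adjusted p 0.222). The other heavy chain, Slc3a1, had 1 read in all.

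Light chains lay on both sides of 0. Slc7a5 (LAT1) had a log2 fold change of 0.39 (SE 0.25), which was 0.017 without TCL library 8. Slc7a6 (y+LAT2) had one of 0.49 (SE 0.24), Slc7a7 (y+LAT1) of 0.50 (SE 0.24) and Slc7a11 (xCT), the cystine and glutamate exchanger, of 0.59 (SE 0.32). Slc7a8 (LAT2) had one of -0.54 (SE 0.20), from 46.6, 72.5 and 66.0 CPM in WT to 38.7, 38.7 and 49.8 CPM in TCL. Slc7a7 and Slc7a11 had groups that did not overlap, and Slc7a7 was at 20.6 CPM in WT library 7 against 40.8 and 37.2 CPM in the other WT libraries. In these 5 genes the edgeR adjusted p ran from 0.154 to 0.375. Slc7a4 was tested on 80 WT and 48 TCL reads, and Slc7a3 (10 and 3) and Slc7a13 (4 and 2) were not tested. The opposite-strand gene Slc7a6os, no carrier, was at 53.6 ± 4.67 and 45.4 ± 5.44 CPM.

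Per length, Slc3a2 stood highest of all members, at 56.25 ± 8.715 CPM per kb of exon in WT and 42.1 ± 8.27 CPM per kb in TCL. The glutamine carrier gene Slc1a5 (ASCT2) followed at 33.7 ± 5.02 and 28.2 ± 2.69 CPM per kb. In WT, the taurine carrier gene Slc6a6 (23.3 ± 2.27 CPM per kb) and Slc16a3 (20.85 ± 2.106 CPM per kb) came next, apart by slightly more than either SD. In TCL, Slc16a3, Slc2a6 and Slc6a6 lay between 31.6 and 33.4 CPM per kb, closer to each other than their SDs of 6.64 to 9.48, and their means were above that of Slc1a5.

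**Figure D3:**
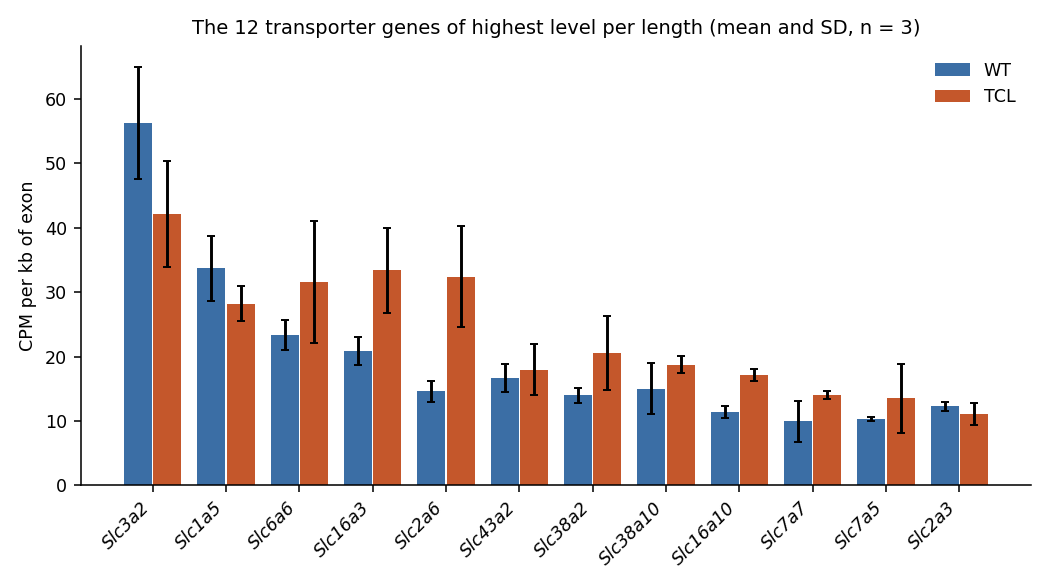
Level per kilobase of exon of the 12 transporter genes with the highest mean over all libraries, in WT (blue) and TCL (orange), as mean and SD of 3 libraries each. Slc3a2 is highest in both groups, and Slc2a6 goes from 14.6 in WT to 32.4 CPM per kb in TCL.

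The glutamine carrier genes Slc1a5, Slc38a1 and Slc38a2 had levels above 100 CPM and did not pass the test. Slc1a5 was at 127, 130 and 165 CPM in WT and 104.9, 125.9 and 122.3 CPM in TCL, all TCL libraries below all WT libraries (log2 fold change -0.26, SE 0.16, edgeR adjusted p 0.369). Slc38a1 (SNAT1) was at 119 ± 0.992 and 125 ± 17.6 CPM. Slc38a2 (SNAT2), which cells raise when amino acids run short, was at 112, 127 and 132 CPM in WT and 196, 126 and 224 CPM in TCL. TCL library 8 was as low as the WT libraries, and without it Slc38a2 was called (edgeR adjusted p 0.0213, against 0.165 with all libraries). The lower members Slc1a2, Slc1a3 and Slc1a4 had log2 fold changes of 1.21, -1.004 and -0.54 with SEs of 0.64, 0.63 and 0.55, and their groups overlapped.

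Slc38a9 and Slc36a1, carriers of the lysosomal membrane, were not called. Slc38a9, the arginine sensor that reports to the growth kinase mTORC1, was at 45.3, 46.8 and 45.3 CPM in WT and 48.0, 47.6 and 59.5 CPM in TCL (log2 fold change 0.17, SE 0.15). Slc36a1 (PAT1), a proton-coupled carrier of small amino acids, was at 21.1, 26.05 and 29.02 CPM in WT and 37.9, 36.9 and 50.6 CPM in TCL. Its groups did not overlap, and its log2 fold change of 0.72 (SE 0.19) had an edgeR adjusted p of 0.0693. Slc36a3 and Slc36a4 had log2 fold changes of 0.73 and 1.48 with SEs of 0.61 and 0.71, Slc36a2 had 27 reads in each group and was not tested, nor was Slc36a1os, whose 6 reads lay in WT library 7. Of the other Slc38 genes, Slc38a7 and Slc38a10 were at 34.7 ± 7.06 and 96.5 ± 25.2 CPM in WT and 29.45 ± 1.454 and 120.2 ± 8.40 CPM in TCL, and Slc38a6 at 9.21 ± 2.65 and 8.08 ± 0.102 CPM.

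Slc43a2 (LAT4), a leucine carrier, was at 179, 143 and 182 CPM in WT and 198, 135 and 208 CPM in TCL, with WT library 7 and TCL library 8 low (log2 fold change 0.10, SE 0.19). Slc43a3, which carries purine bases, was at 30.7 ± 3.41 and 41.5 ± 12.9 CPM. Slc6a6, which takes up taurine, had the highest CPM of the Slc6 genes, at 192, 181 and 219 CPM in WT and 234, 209 and 359 CPM in TCL (log2 fold change 0.44, SE 0.21). TCL library 10 stood above the other libraries. The betaine and GABA carrier genes Slc6a12 and Slc6a13 and the creatine carrier gene Slc6a8 were at 7.89, 5.86 and 2.78 CPM in WT and 7.57, 3.74 and 1.28 CPM in TCL, with overlapping groups.

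Of the 13 Slc6 genes with a read 8 were not tested. Slc6a20a, a proline carrier gene, had 17 WT and 157 TCL reads, at 2.09 and 3.78 CPM in TCL libraries 4 and 10 but 0.326 CPM in TCL library 8, beside 0.329 CPM in WT library 3. On the opposite strand its exons share 13.8% of their bases with Gm17120 and 0.539% with Ccr9, the latter at 30.5 ± 10.9 CPM in WT and 72.5 ± 28.3 CPM in TCL. The serotonin carrier gene Slc6a4 had 18 WT reads and 3 TCL reads. Slc6a14 (9) and Slc6a19 (8) had reads in WT alone, and Slc6a3 (7), Slc6a15 (2) and Slc6a17 (1) in TCL alone.

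**Figure D4:**
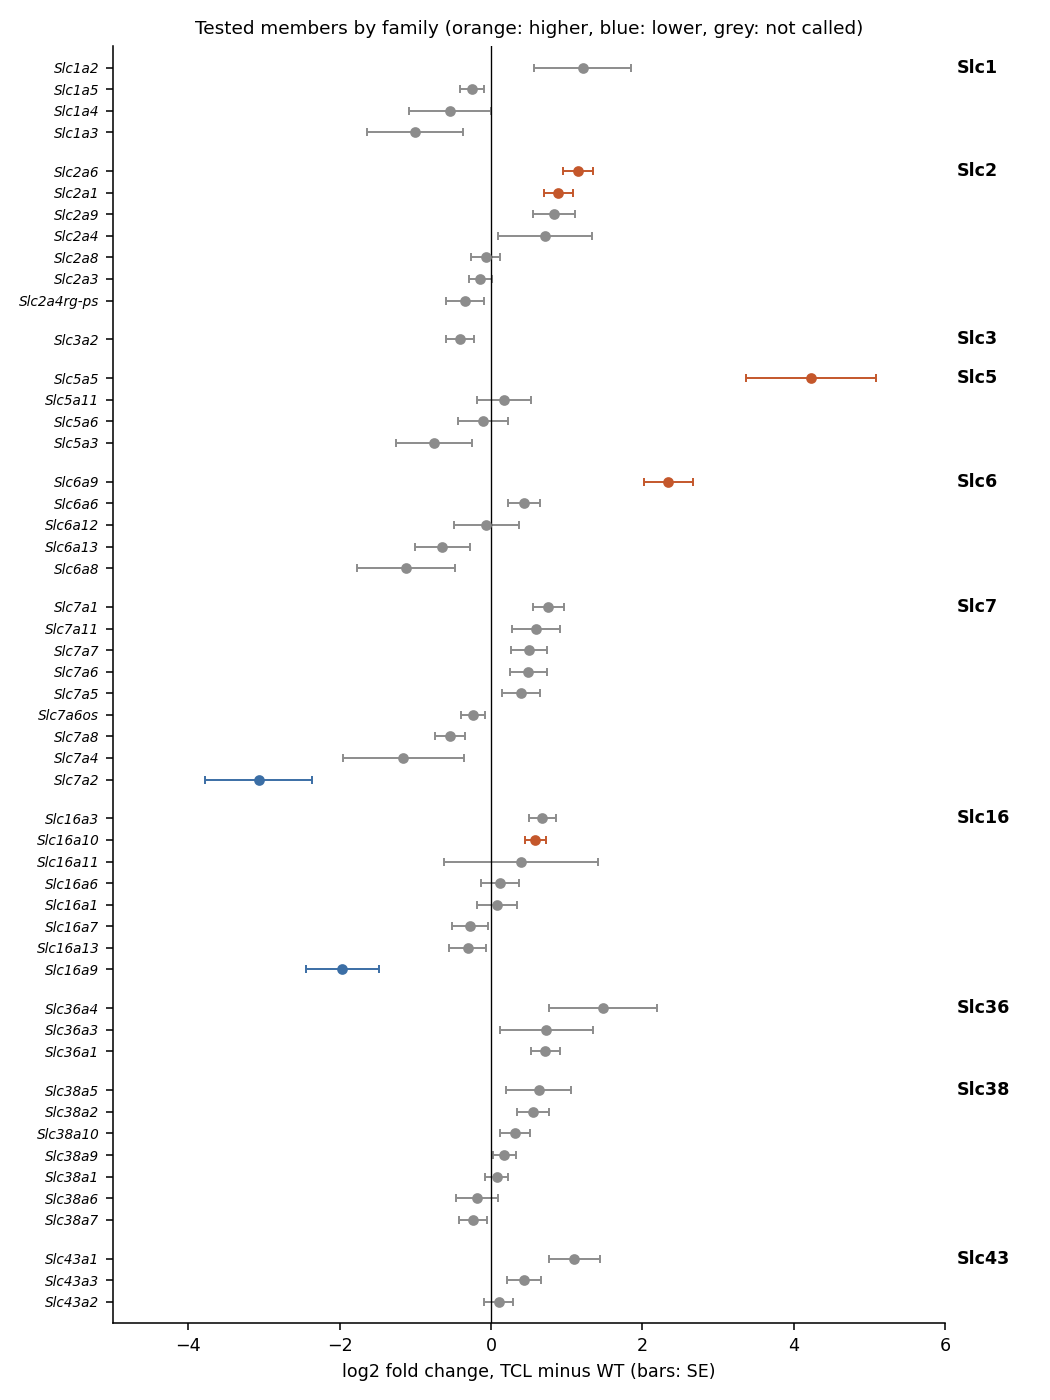
Log2 fold change of TCL against WT with its standard error for the tested members reported here, ordered by family, with genes past an adjusted p of 0.05 in orange (higher) and blue (lower). The 3 Slc36 and 3 Slc43 genes all lie to the right of 0 and 3 of 4 Slc1 genes to the left, none of them called.

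By family, the genes called were 2 of 7 tested in Slc2, 1 of 4 in Slc5, 1 of 5 in Slc6, 1 of 9 in Slc7 and 2 of 9 in Slc16. No gene was called in Slc1 (4 tested), Slc3 (1), Slc36 (3), Slc38 (7) or Slc43 (3), where unadjusted p-values were under 0.05 for 0, 1, 1, 1 and 1 genes and DESeq2 called Slc36a1 and Slc43a1. The median log2 fold change of the tested members was 0.14, beside 0.00 over all genes tested. Of the 52 members, 15 had every TCL library above every WT library, or 28.8% against 14.1% of all tested genes. In 5, or 9.62% against 14.2%, every TCL library was below.

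Sums over the carriers of a family were compared between libraries as a description. The 70 transporter genes together took 1831, 1879 and 1949 CPM in the WT libraries and 2201, 2125 and 2403 CPM in the TCL libraries, without overlap. The Slc16 sum was 277 ± 14.8 CPM in WT and 381 ± 21.6 CPM in TCL, and the Slc36 sum 27.9 ± 3.40 and 46.8 ± 8.81 CPM, and neither overlapped. The Slc1 sum, 96.0% of it from Slc1a5, was 146 ± 20.3 CPM in WT and 123 ± 11.1 CPM in TCL, and the groups did not overlap. Groups overlapped in the Slc3, Slc5, Slc6, Slc7, Slc38 and Slc43 sums.

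**Figure D5:**
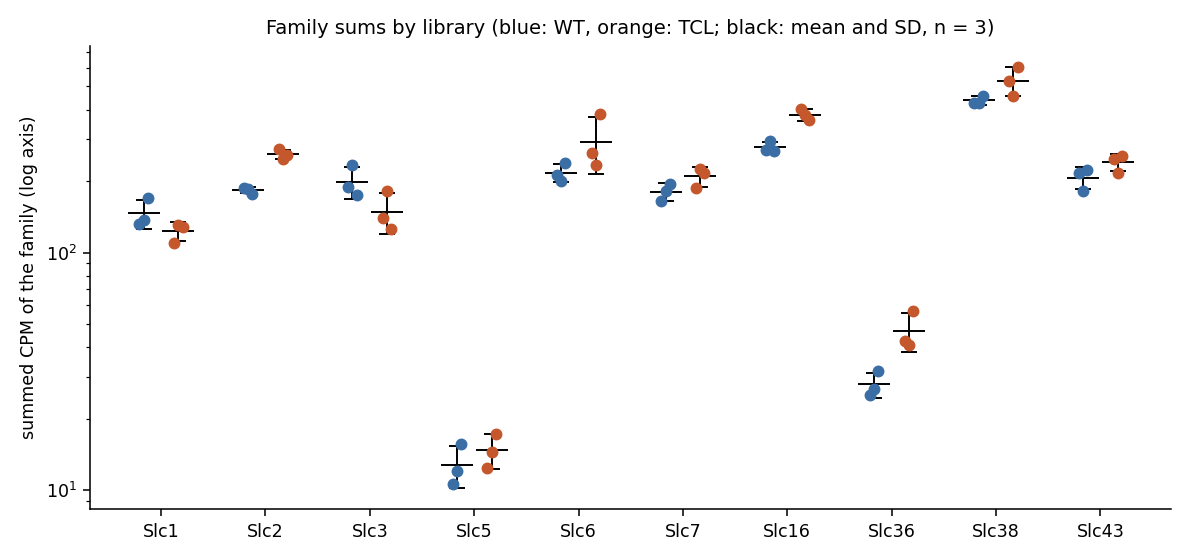
Summed CPM of the carriers of each family in each library on a log axis (WT blue, TCL orange), with mean and SD in black. The Slc2, Slc16 and Slc36 sums of the 3 TCL libraries lie above those of all WT libraries.

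Some lists of genes of the pathways around the carriers held called genes and others held none. Of 21 tested genes of glucose use 2 rose, Hif1a and Pdk1, which keeps pyruvate out of mitochondria, and 0 fell, with a median log2 fold change of 0.35. Pdk1 was at 26.2, 23.7 and 23.2 CPM in WT and 37.2, 40.8 and 36.2 CPM in TCL. Hexokinase 1, which traps glucose after entry, had a log2 fold change of 0.58 (edgeR adjusted p 0.0608) and Hk2 one of -0.27. Of 10 partners and trafficking factors of carriers 1 fell and 0 rose. The one was Txnip, whose protein takes GLUT1 off the cell surface, at 889.5, 930.7 and 865.6 CPM in WT and 480, 553 and 480.8 CPM in TCL (log2 fold change -0.83, SE 0.14, edgeR adjusted p 0.0136). Arrdc3 of the same list went the other way, from 47.8 ± 5.84 to 76.2 ± 11.65 CPM, and was not called (edgeR adjusted p 0.0553). Of the 10 genes 2 had a log2 fold change above 0.

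Of 22 tested genes of the ATF4 amino acid response 2 rose, Cebpb and Atf5, and 0 fell. Cebpb, a factor of myeloid inflammation, was at 588 ± 128 CPM in WT and 1234 ± 396 CPM in TCL, and Atf5 at 11.9 ± 0.0389 and 20.3 ± 1.66 CPM. Both were near the threshold, with edgeR adjusted p of 0.0413 and 0.0462. For genes of the lists no leave-out is reported here. The ATF4 target Asns, asparagine synthetase, overlapped at 20.5 ± 8.21 and 22.2 ± 15.35 CPM, and Atf4 itself was at 314 ± 12.7 and 302 ± 57.8 CPM. Of the 22 genes, 15 had a log2 fold change above 0. Atf3 went the other way, at 55.9 ± 9.26 and 25.8 ± 10.3 CPM (log2 fold change -1.115, SE 0.28, edgeR adjusted p 0.0534). The TCL libraries of Atf3 all lay below its WT libraries, as did those of Ddit3, Chac1 and Cebpg, none of them called. For Chac1 the nearest libraries were at 2.25 CPM in WT and 2.13 CPM in TCL. The opposite held for Cebpb, Atf5 and Aldh18a1, the last not called. Over all tested genes 14.2% had every TCL library below every WT library and 14.1% above. Of 13 tested genes of cystine and glutathione use 2 rose and 0 fell. These were Txnrd1, at 50.4 ± 3.79 and 81.9 ± 2.29 CPM, and Gsr, at 403 ± 74.3 and 706 ± 125 CPM, both of which return oxidised thiols to the reduced state. None of 31 genes of lysosomal amino acid sensing, 12 of glutamine and branched-chain amino acid use and 12 other lysosomal, peptide and sugar phosphate carriers was called, with median log2 fold changes of -0.04, -0.14 and 0.08. The share of tested genes called ran from 0% to 15.4% over these 8 lists, beside 2.03% higher and 2.61% lower over all genes.

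The authors' deposited table lists 13 of the 73 members with an adjusted p under 0.05, against 8.11% of the 16753 genes with a value there. Among them were the 7 genes above, with the same directions, and Slc16a3, Slc36a1, Slc43a1, Slc7a1 and Slc6a20a, all higher. The authors' deposited table gives Slc6a20a a log2 fold change of 2.83 and an adjusted p of 0.0219, with TCL library 8 at the WT level as above.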

How the data were processed

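Members and lists were chosen with earlier results of these data known. Poly(A) RNA of 6 sorted samples was measured. Per the submitters' processing notes, cutadapt, STAR 2.4.2a, HTSeq, DESeq2 and build mm10 were used, with no role given. Those sources name neither the annotation nor the strand setting, so reads of overlapping antisense genes cannot be told apart. Per the file headers, the authors deposited normalized counts (a signal per gene and library) for 24421 genes. Beside them stand the log2 fold change and the p-value the authors deposited, raw and adjusted, printed only as theirs.

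In each library 100% of deposited values above 0 were whole multiples of the value of 1 read, within a tolerance of 0.001, and whole reads were recovered. The count test on them called 604 genes. It was edgeR 4.0.16 (R 4.3.3) with filterByExpr, TMM scaling and a robust quasi-likelihood fit, TCL against WT. The robust option was chosen after the data were seen, because it gives the same number of calls as an earlier description of these data. SE is |log2 fold change| over the root of F. As the deposited unit is a signal, limma 3.58.1 was also run with a trend, taking log2 after adding 1 or 10 to each value. DESeq2 1.42.0 was another alternative. On simulated data the edgeR step was tested for its recovery of known changes. Depth limits precision for genes of few reads, and counting error is only part of the spread. No 2 libraries of a group agreed within sampling noise (chi-square per degree of freedom at least 26.6). Columns carry no replicate number of the labels. Exon lengths are from GENCODE vM21 (GRCm38), found for all 73 members, and count each base in any annotated exon of the gene.

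Genes named were every member called, the highest of each family, 15 set by name, the 5 largest changes not called at 5 CPM or more, and called list members. Some members are counted but not reported here by name. The others are listed for completeness. Genes of the lists not called (Arg1, Arg2, Nos2, Hk1, Hk2, Bsg, Arrdc3, Asns, Atf4, Atf3, Ddit3, Chac1, Cebpg, Aldh18a1, Csf1r, Cd68) were chosen after their values were seen.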

Additional observations from a re-analysis of the deposited data

How the results depend on the processing

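No paired analysis was possible because the columns of the table carry no replicate number of the labels. With 7 members called, 5 higher and 2 lower, the number lower was 1 with library size scaling or the deposited size factors and 0 with limma-voom. The filter of 5 CPM in 3 libraries left 3 higher and 0 lower, 3 in all, with Slc5a5, Slc7a2 and Slc16a9 then not tested and Slc16a10 at an adjusted p of 0.0547. No filter gave 8 higher. DESeq2 and, separately, an adjusted p under 0.1 gave 12 members, 9 of them higher. Without 1 library the number ranged from 1 to 9 in all, from 1 to 7 higher and from 0 to 2 lower.

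Over all genes, 604 were called, 264 higher and 340 lower. DESeq2 called 1453 genes, 715 higher and 738 lower, and the filter of 5 CPM left 208 lower. Without 1 library the counts ran from 246 to 904 in all, from 98 to 475 higher and from 130 to 429 lower. Library size scaling called 352 higher and 296 lower. It moved the median log2 fold change by 0.089. The cause of these differences was not tested.

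Of 357 values of 24 named members under other settings 313 kept their direction and side of the threshold, 30 lost and 10 gained a call, and 4 turned sign. All 30 losses were among the 7 genes called, the only ones with a call to lose. The sign turned for Slc16a1 (-0.295) and Slc5a6 (0.004) without TCL library 8, for Slc43a2 (-0.001) without WT library 7 and for Slc5a6 (0.048) without WT library 3. Over the leave-outs the highest values were 0.246 for Slc16a1 and 0.274 for Slc43a2, and the lowest for Slc5a6 was -0.280. None of these 3 genes was called. No family sum changed the sign of its log2 change, TCL minus WT, on leaving out any single library. For the Slc5 sum this change was 0.205 with all libraries and 0.082 without WT library 3 or without TCL library 10. The fit without the robust option was added after the data were seen and called the same number of members, 7.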
